A study of Rattus norvegicus with 6 samples.

Results

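Neurexins, neuroligins and leucine-rich repeat transmembrane proteins (LRRTMs) are adhesion proteins that join the pre- and postsynaptic sides of a synapse. The 9 genes described here, Nrxn2, Nrxn3, Nlgn1, Nlgn2, Nlgn3, Lrrtm1, Lrrtm2, Lrrtm3 and Lrrtm4, were chosen by symbol as members of these 3 families and are 9 of the 38445 genes counted. All 9 matched a gene identifier in the count tables. They were measured by RNA-seq in the amygdala of adult male Sprague Dawley rats without genetic modification. The control group was injected with saline and the ethanol group with ethanol at 1 g/kg, both intraperitoneally, and tissue was taken 1 h later. Each group had 6 rats, and each library held RNA pooled from 2 of them, giving 3 control and 3 ethanol libraries. Variation between individual rats within a pool cannot be seen, and the p-values below rest on the spread between pools. The comparison addressed here is whether mRNA levels of these genes differed between ethanol-exposed and saline-treated rats at this single dose and time.

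Neurexins sit on the presynaptic membrane and bind, across the cleft, neuroligins and LRRTMs on the postsynaptic membrane. Neuroligin 1 is found mainly at excitatory synapses and neuroligin 2 at inhibitory synapses, while neuroligin 3 occurs at both. LRRTM1 and LRRTM2 bind neurexins directly at excitatory synapses, and LRRTM4 binds the heparan sulfate chains of glypicans and neurexins. In the amygdala, synapses of both kinds lie in the circuits that set fear and anxiety. Neurexin genes give long and short proteins and many spliced forms, which counts summed over a gene do not separate.

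The genes differ widely in size. In the Rnor_6.0 annotation used for counting, Nrxn2 lies at chr1:221792191-221908047 on the plus strand, with 24 exonic blocks, and Nrxn3 at chr6:112133204-114069589 on the plus strand, spanning 1936.4 kb with 26 blocks. Nlgn1 lies at chr2:111057291-111973681 on the minus strand and spans 916.4 kb. Nlgn2, at chr10:56431586-56444847 on the minus strand, spans only 13.3 kb and encodes the inhibitory-synapse neuroligin. Nlgn3 lies at chrX:71199390-71227460 on the plus strand. Thus the neuroligin genes of excitatory and inhibitory synapses have exonic lengths of 7518 and 3963 nt in very unequal spans.

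Of the 4 LRRTM genes, 3 lie inside a gene for an alpha-catenin, a protein that links cadherins to actin, on its opposite strand. Lrrtm1 (chr4:108300927-108316373, plus strand) lies within Ctnna2, which spans 1162.1 kb. Lrrtm2 (chr18:28012877-28017925, minus strand) lies within Ctnna1, which spans 132.7 kb. Lrrtm3 (chr20:25990304-26163656, plus strand) lies within Ctnna3, which spans 1577.3 kb. Lrrtm4 (chr4:110699577-111497643, plus strand) had no such host gene. None of the 9 genes shared an exonic base with another gene on either strand, and the reads were counted by strand, so the counts of each LRRTM gene are separate from those of its host.

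**Figure D1:**
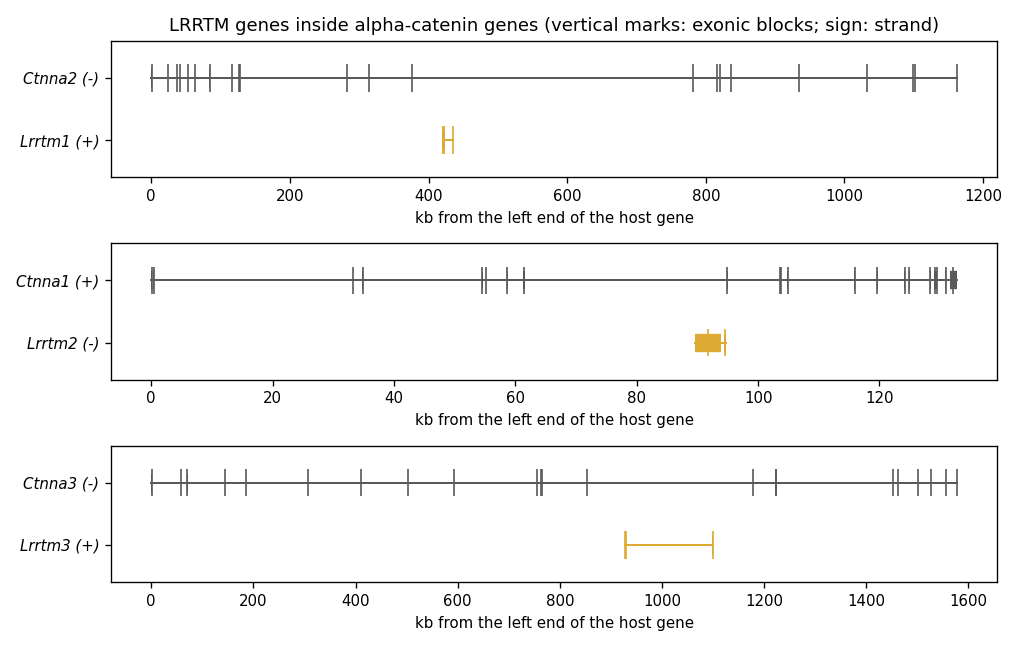
Each panel shows an alpha-catenin gene (grey) and the LRRTM gene inside it (yellow), with distance in kb from the left end of the host gene on the x axis. Vertical marks stand for exonic blocks, drawn with a minimum width so that short ones stay visible, and the sign gives the strand. In all 3 pairs the strands are opposite and the LRRTM gene lies between the ends of its host, which has 21 or 22 blocks.

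The sequence before the start of each gene is given as context for the genes compared below. RefSeq promoters in the GRCr8 build, of which the 250 bases before the start site were used, matched 7 of the 9 genes (all but Nrxn2 and Nrxn3). Shown are Nlgn1 and Nlgn2, the pair of neuroligins compared by ratio below, and Lrrtm3, which had the highest log2 fold change. They are written 5′ to 3′ on the strand of the gene, from chr2:110930677-110930926 (minus), chr10:55056579-55056828 (minus) and chr20:24514054-24514303 (plus) of GRCr8. Capitals mark every match to GGGCGG, the GC box bound by Sp1, on either strand, so a match on the other strand reads CCGCCC. Other motifs were searched for in the same way on both strands. They were the cAMP response element (TGACGTCA), the TATA box (letters TATAAA), the box named for its letters CCAAT, and the E-box, for which the form CACGTG was used. None of them had a match in these 3 sequences.
Nlgn1: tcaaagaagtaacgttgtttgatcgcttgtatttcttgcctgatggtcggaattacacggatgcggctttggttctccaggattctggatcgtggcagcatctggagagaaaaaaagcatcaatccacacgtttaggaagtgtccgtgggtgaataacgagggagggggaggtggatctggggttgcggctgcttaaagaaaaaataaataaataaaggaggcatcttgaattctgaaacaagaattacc
Nlgn2: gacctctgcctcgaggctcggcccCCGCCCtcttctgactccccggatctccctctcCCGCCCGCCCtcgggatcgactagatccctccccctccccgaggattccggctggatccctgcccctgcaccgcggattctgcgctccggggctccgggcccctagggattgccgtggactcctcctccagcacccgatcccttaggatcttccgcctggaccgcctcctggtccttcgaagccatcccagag
Lrrtm3: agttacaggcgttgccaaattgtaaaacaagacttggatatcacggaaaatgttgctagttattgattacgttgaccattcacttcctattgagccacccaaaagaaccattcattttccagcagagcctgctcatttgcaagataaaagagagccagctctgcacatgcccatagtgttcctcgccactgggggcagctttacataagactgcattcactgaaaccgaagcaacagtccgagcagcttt
Nlgn2 had 20 CpG dinucleotides in this window and a GC content of 69.2%, against 10 and 44.4% for Nlgn1 and 6 and 44.8% for Lrrtm3. The median over all 33469 promoters was 5 CpG and 51.2% GC. Nlgn2 held 3 GC boxes, and overlapping matches were counted. None of the other 6 promoters held one, and 30.5% of all promoters did. Lrrtm2 held the single cAMP response element, a motif found in 1.59% of all promoters, and Nlgn3 the single CCAAT box, found in 34.0%. No member held a TATA box or the E-box, which 12.9% and 5.59% of all promoters did. These matches describe letters in a window and are not measured binding sites.

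Of all genes, 18141 had enough counts to be tested, and all 9 adhesion genes were among them. The libraries had from 62576504 to 70755739 assigned reads. The 9 genes had between 2473 and 36142 reads in a library, so counting error was at most 2.01% of a value. Levels are given as CPM, the reads of a gene relative to a common library total, after TMM scaling, which adjusts for differences in library composition. Where genes are compared with each other, TPM was used, which also divides by exonic length. In the smallest library 3 reads correspond to 0.0479 CPM, far below any value here.

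Some libraries stood apart in markers of neighbouring tissue, and for choroid plexus the groups did as well. The summed level of 6 choroid plexus markers, led by Ttr, was 507, 1097 and 880 CPM in control replicates 1 to 3, and 11.3, 11.9 and 468 CPM in ethanol replicates 1 to 3. Every ethanol sum thus lay below every control sum. This difference runs along the ethanol and control comparison itself, and its part in the fold changes below was not tested. The sum of 4 hypothalamic neuropeptide genes was 313 CPM in ethanol replicate 3 and between 7.90 and 106 CPM in the other 5 libraries. The sum of 5 oligodendrocyte markers ranged from 3279 to 7939 CPM in control and from 4064 to 9225 CPM in ethanol libraries, with the maximum in ethanol replicate 3. Markers of the amygdala's own cells were present throughout. The 5 pan-neuronal markers summed to between 5109 and 6150 CPM. Slc17a7, the vesicular glutamate transporter of cortical-type excitatory neurons, was at 413 to 879 CPM. Because tissue was measured in bulk, fewer cells of a type and less RNA per cell cannot be told apart.

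Nlgn2 and Nrxn2 had the highest levels per length. Over the 6 libraries Nlgn2 averaged 181 ± 16.7 TPM (SD, n = 6) and Nrxn2 173 ± 16.2 TPM, and their ranges overlapped. Nlgn3 followed at 110 ± 12.1 TPM, below every value of the first 2 genes. Then came a group of 5 genes in which each neighbour's range overlapped the next, namely Lrrtm1 at 54.3 ± 10.8 TPM, Nlgn1 at 48.2 ± 5.60, Nrxn3 at 47.3 ± 3.70, Lrrtm2 at 45.9 ± 2.77 and Lrrtm3 at 38.8 ± 5.84 TPM. Lrrtm4, the glypican-binding member, was lowest at 18.1 ± 2.26 TPM, and its maximum of 21.0 TPM lay below the Lrrtm3 minimum of 32.9 TPM. Even so, 55.7% of the genes tested had a lower TPM than Lrrtm4, and 94.1% a lower TPM than Nlgn2. These levels depend on the annotated exonic length, which for Nrxn3 (12340 nt) joins all annotated exons, so that its TPM is a low estimate if the main transcripts are shorter.

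**Figure D2:**
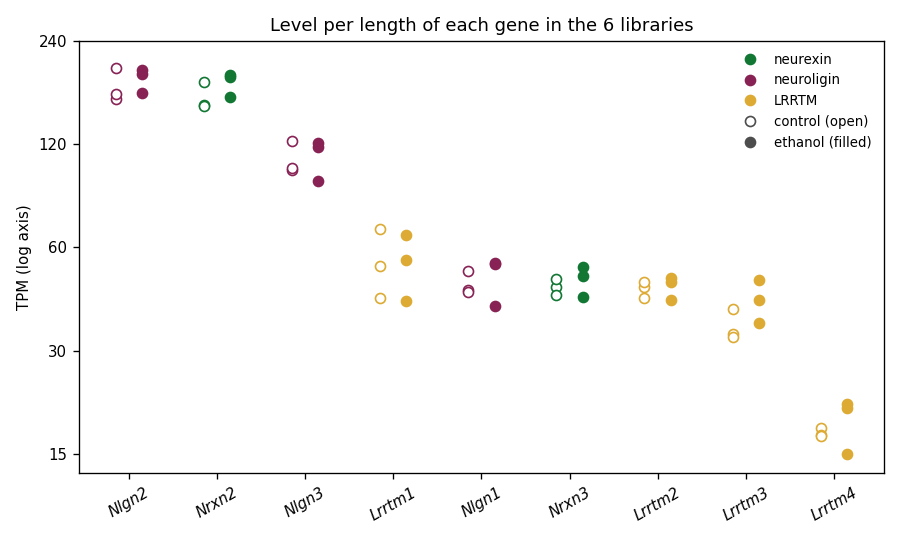
TPM of each gene in the 6 libraries on a log axis, with genes ordered by their mean, control libraries as open and ethanol libraries as filled circles, and colours for the 3 families. Nlgn2, Nrxn2 and Nlgn3 lie above 90 TPM, 5 genes lie between 32.9 and 67.7 TPM, and Lrrtm4 lies at or below 21.0 TPM, with open and filled circles overlapping in every gene.

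Within a library the shares of each family varied little for neurexins and neuroligins. Of the summed TPM of Nrxn2 and Nrxn3, Nrxn2 took between 77.1% and 79.3% in the 6 libraries. Of the 3 neuroligins, Nlgn2 took 52.6% to 55.7%, Nlgn3 30.9% to 32.8% and Nlgn1 13.4% to 14.8%. The LRRTM family was less even, since the share of Lrrtm1 ran from 29.2% in control replicate 1 to 40.8% in control replicate 2. Lrrtm3 ran from 20.2% to 28.0%, Lrrtm2 from 27.6% to 31.5% and Lrrtm4 from 10.3% to 12.2%. The widest span of shares was therefore between 2 control libraries, not between the groups.

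No difference between ethanol and control passed the test for any of the 9 genes. In the quasi-likelihood fit of edgeR, adjusted by Benjamini-Hochberg over all genes, 0 of 9 had an adjusted p below 0.2, the threshold used, and the smallest adjusted p was 1.00. Across all genes the share called was 0.0%, with a smallest adjusted p of 0.818. At an unadjusted p below 0.05, 0 of 9 were higher and 0 were lower, against 1.57% of all genes higher and 2.58% lower. DESeq2, limma-voom and edgeR's likelihood ratio test also gave 0 of 9 at either threshold. In none of the 9 did all ethanol libraries lie above all control libraries, which 3.65% of all genes did. The log2 fold changes were above 0 for 8 of 9 genes and ran from -0.00 for Lrrtm1 to 0.26 for Lrrtm3, with a median of 0.08. Over all genes tested, 52.6% were above 0 and the median was 0.0064. All 9 intervals of 95% included 0.

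Among the neurexins, the presynaptic partners, Nrxn2 was measured at 454, 509 and 439 CPM in the control libraries and at 538, 539 and 477 CPM in the ethanol libraries. Ethanol replicates 1 and 2 lay above all controls, and replicate 3 lay between control replicates 1 and 2. The log2 fold change was 0.15 ± 0.09 (SE), or 10.8% with an interval from -4.03% to 27.9% (unadjusted p = 0.138, adjusted p = 1.00, edgeR). Nrxn3 was at 223, 225 and 206 CPM in control and 247, 236 and 206 CPM in ethanol libraries. Its pattern was similar, with ethanol replicate 3 at the level of the lowest control, and its log2 fold change was 0.08 ± 0.08 (SE), with an interval from -0.12 to 0.27.

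Nlgn1, the neuroligin of excitatory synapses, was at 133, 144 and 127 CPM in control and 155, 156 and 119 CPM in ethanol libraries. The last of these was the lowest of all 6, and the first 2 were the highest. The log2 fold change was 0.08 ± 0.11 (SE), with an interval from -0.17 to 0.34. Nlgn2, the neuroligin of inhibitory synapses, was at 252, 297 and 253 CPM in control and 296, 293 and 260 CPM in ethanol libraries. Its maximum was in control replicate 2, so that the ethanol values lay inside the control range, and its log2 fold change was 0.08 ± 0.09 (SE), from -0.13 to 0.29. Nlgn3 was at 204, 236 and 200 CPM in control and 235, 234 and 187 CPM in ethanol libraries, and the groups overlapped almost wholly. Its log2 fold change was 0.04 ± 0.11 (SE), from -0.22 to 0.29.

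The ratio of Nlgn2 to Nlgn1 sets the inhibitory-synapse neuroligin against the excitatory-synapse one and needs no scaling between libraries. Per length, it was 3.60, 3.90 and 3.77 in control and 3.63, 3.57 and 4.16 in ethanol libraries, so that the ethanol group held both the lowest and the highest value. The means were 3.76 ± 0.15 (SD, n = 3) and 3.78 ± 0.324, and the log2 ratio differed by 0.01 (exact permutation test over 20 assignments, two-sided, p = 0.9). With 3 libraries against 3 this test cannot give a p below 0.1. Without control replicate 1 the difference in the log2 ratio was -0.02, and without ethanol replicate 3 it was -0.06.

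Lrrtm3 had the highest log2 fold change of the 9 genes. It was at 59.9, 48.5 and 48.3 CPM in control and 70.4, 62.8 and 54.0 CPM in ethanol libraries. Ethanol replicates 1 and 2 exceeded all controls, while replicate 3 lay below control replicate 1. The log2 fold change was 0.26 ± 0.12 (SE), or 19.5% with an interval from -1.40% to 44.9% (unadjusted p = 0.065, adjusted p = 1.00, edgeR). Lrrtm4 was at 42.6, 39.0 and 39.4 CPM in control and 48.6, 47.9 and 35.5 CPM in ethanol libraries. Here ethanol held the 2 highest values and the lowest, and the log2 fold change was 0.13 ± 0.12 (SE), from -0.15 to 0.40.

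Lrrtm1 varied most between libraries of one group, at 56.0, 84.6 and 67.6 CPM in control and 69.9, 84.0 and 54.2 CPM in ethanol libraries. Its coefficient of variation was 20.7% in control and 21.5% in ethanol libraries, and its log2 fold change was -0.00 ± 0.19 (SE), with an interval from -0.43 to 0.43. Slc17a7, the marker of cortical-type excitatory neurons, was at 413, 770 and 554 CPM in control and 668, 879 and 425 CPM in ethanol libraries. Both genes were thus low in control replicate 1 and ethanol replicate 3 and high in replicate 2 of each group. Among the other glutamatergic markers, Neurod6 shared this order, but Slc17a6 did not. It was at 107, 85.9 and 84.5 CPM in control and 114, 79.2 and 135 CPM in ethanol libraries. Tbr1 was lowest in control replicate 2, at 13.7 CPM, and Camk2a was highest among controls in replicate 3, at 807 CPM. The part of these markers' variation in that of Lrrtm1 was not tested. Lrrtm2, which binds neurexins like Lrrtm1, was at 85.4, 84.3 and 76.9 CPM in control and 85.4, 89.0 and 77.3 CPM in ethanol libraries. It had the smallest SE of the 9 genes, with a log2 fold change of 0.03 ± 0.07 (SE), from -0.14 to 0.20.

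**Figure D3:**
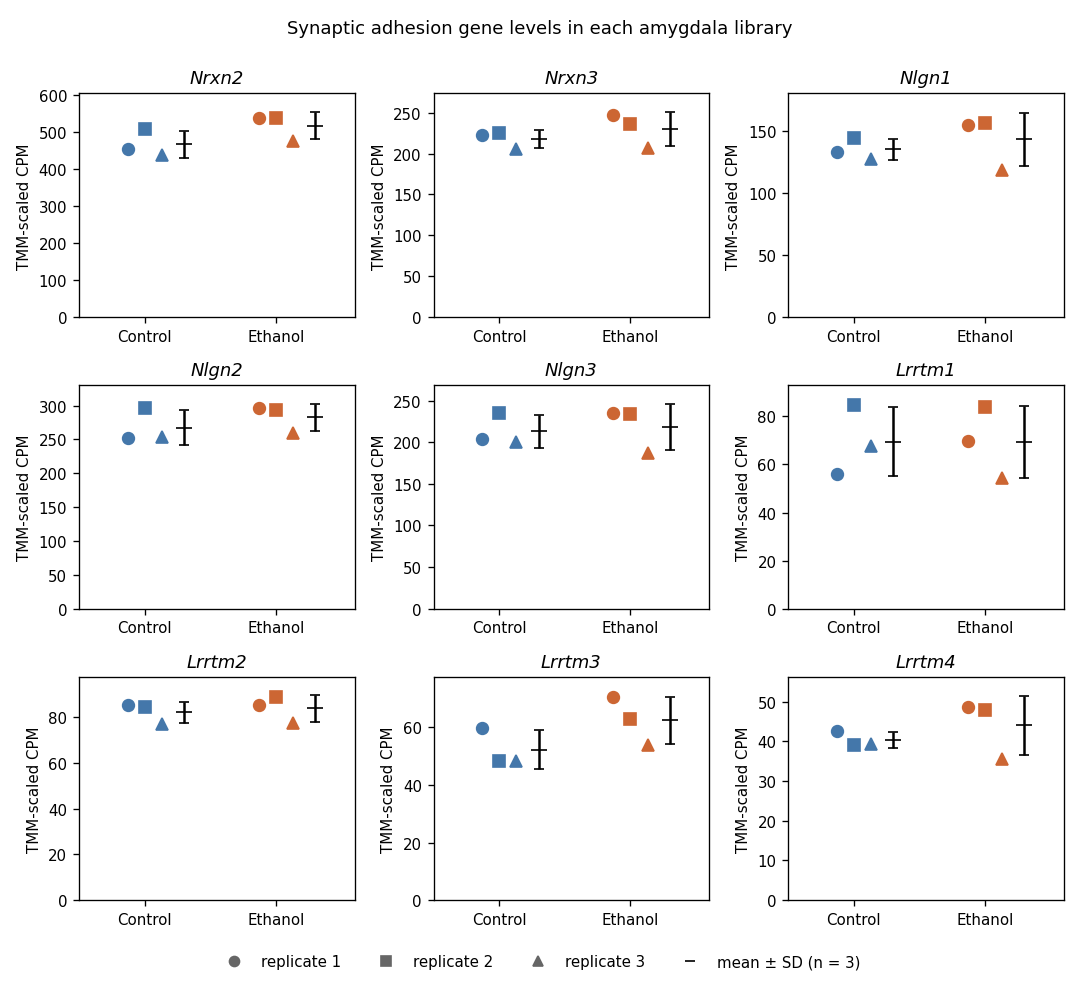
TMM-scaled CPM of the 9 genes in each library, with a panel for each gene, an axis from 0, symbols for the replicate number, and a bar for the mean ± SD of 3 libraries. The triangle of ethanol replicate 3 is the lowest ethanol point in all 9 panels, and the groups overlap in every panel.

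The alpha-catenin hosts of the LRRTM genes showed no difference that passed the test. Ctnna2, host of Lrrtm1, was at 152 ± 4.72 CPM (SD, n = 3) in control and 154 ± 6.17 CPM in ethanol libraries, ranging from 147 to 161 CPM while Lrrtm1 ranged from 54.2 to 84.6 CPM. Ctnna1, host of Lrrtm2, was at 71.9 ± 5.85 and 71.4 ± 7.34 CPM. Ctnna3, host of Lrrtm3, was at only 2.36 ± 0.621 and 2.82 ± 1.33 CPM. Its log2 fold change of 0.26 ± 0.34 (SE) equalled that of Lrrtm3 in size, but its highest library was ethanol replicate 3 at 4.32 CPM, where Lrrtm3 was lowest among ethanol libraries. At an unadjusted p below 0.05, 0 of the 3 catenin genes were higher and 0 lower, against 1.57% and 2.58% of all genes.

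The libraries were ordered alike for many but not all of the 9 genes. Ethanol replicate 3 was the lowest ethanol library for 9 of 9 genes and the lowest of all 6 for 4. Control replicate 2 was the highest control for 6 genes and control replicate 3 the lowest for 6. As log2 deviation from the control mean, the median over the 9 genes was -0.02, 0.10 and -0.08 in control replicates 1 to 3, and 0.18, 0.21 and -0.09 in ethanol replicates 1 to 3. Over all genes tested, the median deviation lay between -0.0028 and 0.0064 in the 6 libraries. All 9 genes lay above the control mean in ethanol replicates 1 and 2, and 7 of 9 lay below it in replicate 3. How many of all genes had the same order of libraries is not given here. The controls were less uniform, since Lrrtm1 was at -0.29, 0.31 and -0.02 where Lrrtm3 was at 0.21, -0.10 and -0.11 on the same scale. The spread was accordingly larger in the ethanol group for 7 of 9 genes, with a median coefficient of variation of 12.5% against 7.83% in control. Over all genes tested these medians were 9.23% and 8.19%.

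The summed pan-neuronal markers (Rbfox3, Snap25, Syt1, Stmn2 and Map2) were likewise highest in ethanol replicates 1 and 2 and lowest in ethanol replicate 3. They were at 5688, 5613 and 5350 CPM in control and 6087, 6150 and 5109 CPM in ethanol libraries. Not every marker in the sum had this order. Snap25 and Syt1 were lowest in ethanol replicate 3, but Rbfox3 and Stmn2 were lowest in control replicate 3, at 76.0 and 424 CPM. Map2 was highest in control replicate 1, at 2275 CPM, and lowest in control replicate 2, at 1990 CPM. The summed glutamatergic markers were 1233, 1708 and 1493 CPM in control and 1721, 1940 and 1352 CPM in ethanol libraries. Ethanol replicate 3 was thus the lowest ethanol library in both of these sums, though control replicate 1 was lower in the glutamatergic sum. It was highest of all in the astrocyte sum, at 5035 CPM against 3715 to 4452 CPM in the other 5 libraries. Gfap, Aqp4, Aldh1l1 and Gja1 were highest there, Gja1 only at 748 CPM against 738 CPM in control replicate 3. Slc1a3 was highest in control replicate 3, at 1345 CPM against 1249 CPM in ethanol replicate 3. The GABAergic and striatal-type sum was 986, 793 and 749 CPM in control and 874, 772 and 878 CPM in ethanol libraries. In that sum ethanol replicates 3 and 1 were thus nearly equal. The markers in it differed in order. In ethanol replicate 3, Gad1 was the lowest of all 6 libraries, at 361 CPM, and Gad2 lay below ethanol replicate 1, at 163 against 172 CPM. Ppp1r1b and Drd1 were highest of all there, at 142 and 43.2 CPM. Microglial and endothelial sums ranged from 224 to 263 CPM and from 136 to 155 CPM over the 6 libraries. Ependymal sums were 37.6 to 52.6 CPM in control and 30.7 to 33.1 CPM in ethanol libraries, so that the groups did not overlap, as for the choroid plexus sums. Each marker on these lists passed the filter on low counts. The part of these markers in the levels of the adhesion genes was not tested.

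**Figure D4:**
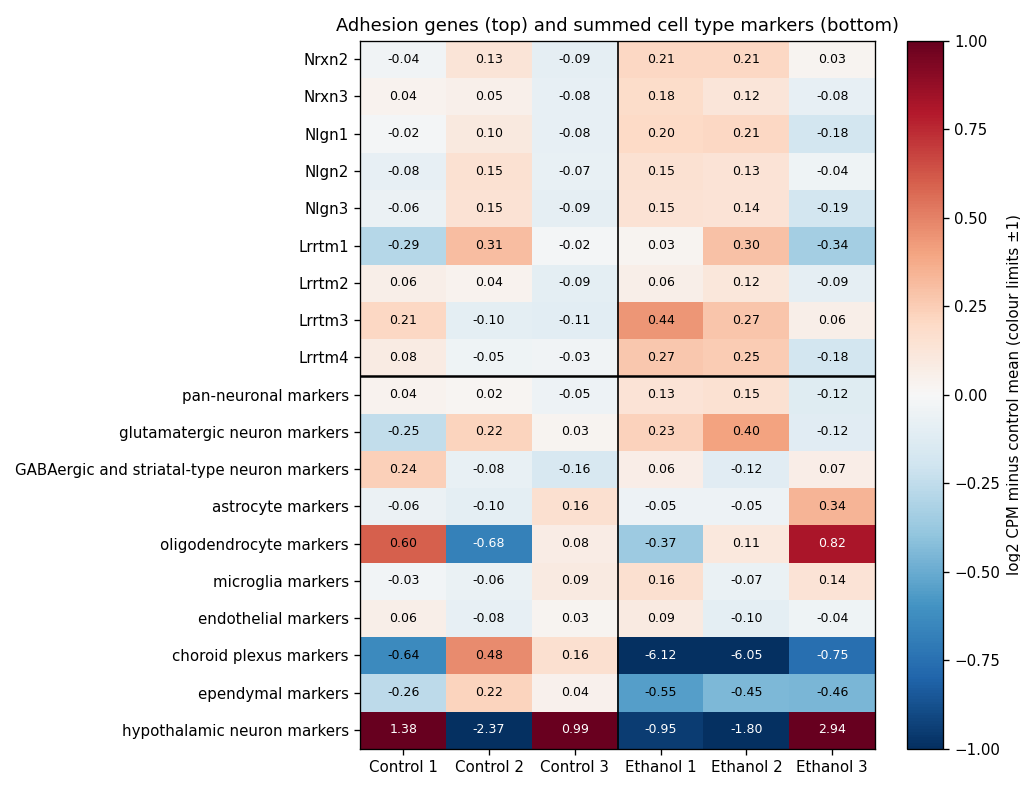
Log2 difference from the control mean in each library for the 9 genes (upper rows) and for the summed markers of 10 cell types (lower rows), with colours limited to ±1 and the value printed in each cell. Ethanol replicates 1 and 2 are above 0 for all 9 genes, ethanol replicate 3 is below 0 for 7, and the pan-neuronal sum has values of 0.13, 0.15 and -0.12 in the same 3 libraries.

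Because 1 library set the ethanol minimum of every gene, the comparison was also read without it, a choice made after its values were seen. Since that library was the lowest ethanol library for all 9 genes, leaving it out raises each fold change by construction, and the counts below describe ethanol replicates 1 and 2 only. They are not comparable with the shares of all genes, which were not selected in this way and are given only for reference. With those 2 libraries, 4 of 9 genes were higher at an unadjusted p below 0.05 (4.48% of all genes). These were Nrxn2 at a log2 fold change of 0.20, Nlgn1 at 0.20, Lrrtm3 at 0.35 and Lrrtm4 at 0.26. All 9 fold changes were above 0, with a median of 0.15 (-0.0038 over all genes). With CPM rescaled for the libraries kept, both ethanol libraries exceeded all controls in 6 of 9 genes (14.3% of all genes). These were Nrxn2, Nrxn3, Nlgn1, Lrrtm2, Lrrtm3 and Lrrtm4. On the CPM printed above, scaled over all 6 libraries, 5 of 9 did so (14.2% of all genes), without Lrrtm2. The smallest adjusted p was 0.335, for Lrrtm4, so that 0 of 9 genes passed 0.2 in this fit by edgeR's quasi-likelihood test, as 0.452% of all genes did. The 2 libraries kept here are those with choroid plexus sums of 11.3 and 11.9 CPM. Without control replicate 1, 1 of 9 genes, Lrrtm3, was higher at an unadjusted p below 0.05 (1.37% of all genes), and it was also the 1 gene whose ethanol libraries all lay above the controls (7.23% of all genes). Without control replicate 2, Nrxn2 and Nlgn2 did so (9.99% of all genes).

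**Figure D5:**
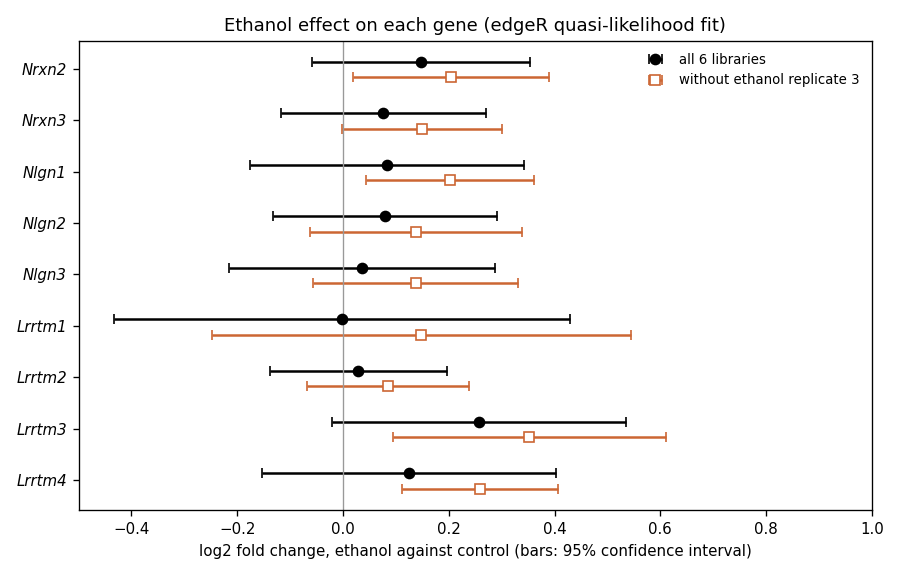
Log2 fold change of each gene with its 95% confidence interval, from all 6 libraries (black circles) and without ethanol replicate 3 (orange squares). All black intervals include 0, and the orange intervals of Nrxn2, Nlgn1, Lrrtm3 and Lrrtm4 lie above 0 before any adjustment for the number of genes, in a fit that leaves out the lowest ethanol library of each gene.

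Genes whose products bind the adhesion proteins were described in the same way. Of 14 further neurexin ligands (cerebellins, neurexophilins, C1q-like proteins, calsyntenin 3, dystroglycan and latrophilins), 11 had a log2 fold change above 0, with a median of 0.08. Over all genes tested, 52.6% were above 0. At an unadjusted p below 0.05, 1 ligand was higher and 0 lower, against 1.57% and 2.58% of all genes. That gene was Nxph4, a neurexophilin, a secreted ligand of neurexins, at 8.80, 7.07 and 6.88 CPM in control and 11.4, 7.97 and 16.4 CPM in ethanol libraries (log2 fold change 0.65, adjusted p = 1.00 by edgeR). Its groups overlapped, and its maximum was in ethanol replicate 3. The call was absent without control replicate 2, without control replicate 3 and without ethanol replicate 3. Cbln2, a cerebellin that bridges neurexins to postsynaptic receptors, had its maximum in the same library, at 37.4 CPM against 18.3 to 24.5 CPM in the others. Among abundant ligands, Clstn3 was at 361 ± 39.6 CPM (SD, n = 3) in control and 385 ± 37.2 CPM in ethanol libraries, and Adgrl1, latrophilin 1, at 312 ± 34.5 and 338 ± 30.3 CPM. Nxph2 was rare, at 2.08 and 1.70 CPM on average.

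Of 9 presynaptic scaffold and splicing-regulator genes, 7 had a log2 fold change above 0 (52.6% of all genes), with a median of 0.04. At an unadjusted p below 0.05, 0 were higher or lower, against 1.57% and 2.58% of all genes. Lin7b, a partner of the neurexin-binding kinase CASK, was at 34.0 to 36.2 CPM in control and 36.9 to 39.1 CPM in ethanol libraries. Its ethanol libraries all lay above its controls, as they did for 3.65% of all genes (log2 fold change 0.11 ± 0.06, SE, unadjusted p = 0.109, edgeR). Apba1 and Apba2, the Mint adaptors, had log2 fold changes of 0.08 and -0.00. Khdrbs1 and Khdrbs3, RNA-binding proteins of the family that controls neurexin splicing, had 0.02 and -0.08.

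Of 13 postsynaptic partners, all 13 had a log2 fold change above 0 (52.6% of all genes), from 0.03 to 0.16 with a median of 0.07. At an unadjusted p below 0.05, 0 were higher or lower, against 1.57% and 2.58% of all genes. Dlg4, the scaffold PSD-95 that binds the tail of neuroligin 1, was at 941 ± 15.3 CPM (SD, n = 3) in control and 968 ± 55.3 CPM in ethanol libraries. Dlg2, a related scaffold, was at 471 ± 10.6 and 485 ± 29.4 CPM. Mdga1, which binds neuroligins and blocks their access to neurexins, had a log2 fold change of 0.16 ± 0.09 (SE). Gpc4, a glypican that binds LRRTM4, had 0.16 ± 0.18 and was at 36.1, 43.2 and 25.1 CPM in ethanol libraries, with the minimum in replicate 3 as for Lrrtm4. Magi2, a scaffold of both synapse types, had 0.10 ± 0.08. Without ethanol replicate 3, Dlg3, Magi2 and Gpc4 were higher at an unadjusted p below 0.05. This fit leaves out the library seen to be low in the members, so the 4.48% of all genes is given only for reference.

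Of 30 genes of other synaptic adhesion families, 20 had a log2 fold change above 0 (52.6% of all genes), with a median of 0.05. At an unadjusted p below 0.05, 1 of them was higher and 0 lower, against 1.57% and 2.58% of all genes. Cadm2, an immunoglobulin-type adhesion protein of axons and synapses, was at 31.9, 31.6 and 31.3 CPM in control and 38.6, 36.9 and 35.7 CPM in ethanol libraries. All ethanol libraries lay above all controls, as they did for 3.65% of all genes. The log2 fold change was 0.23 ± 0.06 (SE), with an unadjusted p of 0.0047 and an adjusted p of 0.911 (edgeR quasi-likelihood test, Benjamini-Hochberg). Unlike the 9 genes, Cadm2 was above all controls in ethanol replicate 3 as well. Il1rapl1 and Slitrk2, partners of presynaptic receptor phosphatases, had log2 fold changes of 0.25 ± 0.12 and -0.17 ± 0.09 (SE). The abundant Ptprs, one of those phosphatases, and Cadm3 were at 525 ± 88.3 and 373 ± 37.1 CPM (SD, n = 3) in control and 519 ± 57.0 and 426 ± 59.3 CPM in ethanol libraries. Without ethanol replicate 3, 8 of these 30 genes were higher at an unadjusted p below 0.05. That fit leaves out the library seen to be low in the members, so the 4.48% of all genes is given only for reference.

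For the most abundant member of each family, the genes with the most similar profile were found among 10325 genes with a mean of at least 10 CPM, by Pearson's r of log2 CPM over the 6 libraries. Nrxn2 was closest to Ankrd34a (r = 0.996), Prkar1b (0.992) and Gsk3a (0.990). Nlgn2 was closest to Dennd1a (0.995), Grin1, the obligate NMDA receptor subunit (0.994), and Rita1 (0.989). Lrrtm1 was closest to Slco3a1 (0.999), Nt5dc3 (0.997) and Nectin1 (0.995). These values are the highest of 10325 over only 6 points that share library and cell composition, and are given as a description.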

How the data were processed

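Amygdala RNA was sequenced as single reads of 100 nt from strand-specific mRNA libraries. The authors aligned reads with STAR 2.7.0f and deposited raw counts per gene, made with featureCounts (Subread 1.6.3). Per the file headers, counts were summed over exons of the Rnor_6.0 annotation with strand setting 2, leaving out multi-mapping reads and reads over several genes. No normalization had been applied. The authors' processing notes also name R 3.6.2, edgeR and limma, but the test used for RNA-seq was not given in the sources used here. Here, genes kept by filterByExpr (minimum count 10, minimum total 15) were scaled by TMM and compared with the quasi-likelihood test of edgeR 4.0.16 in R 4.3.3, using 3 control and 3 ethanol libraries, with Benjamini-Hochberg adjustment over 18141 genes and a threshold of 0.2. CPM are TMM-scaled, and log2 CPM used a prior count of 2. TPM used the exonic length deposited beside each gene. The fit was tested on simulated data. Gene symbols came from a RefSeq table for 29322 of 38445 identifiers.

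Genes named were the 9 members, the 3 alpha-catenin genes, in each other partner list the 3 genes with the smallest unadjusted p and the 2 with the highest CPM, and the 3 most similar genes for the member of highest TPM in each family. Genes called only without ethanol replicate 3 were named after their values were seen. The members and all lists were chosen with earlier results of these data known. The 14 alternatives comprised other scaling, filters and tools (DESeq2 1.42.0, limma 3.58.1), a replicate block and leaving out each library. Intervals of fold changes come from the fit and rest on the spread between libraries. The counting error and the value of 3 reads cover counting error only, since reads carried no molecular identifiers. Chromatin accessibility, qPCR and other assays of the study were not analysed here.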

Additional observations from a re-analysis of the deposited data

How the results depend on the processing

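Under all 14 alternatives, 0 of 9 genes had an adjusted p below 0.2. The number higher at an unadjusted p below 0.05, 0 with all libraries, was 1 without a filter on low counts (Lrrtm3; 1.46% of all genes) and ranged from 0 to 4 when a library was left out. Leaving out a library gave 0 to 6 genes without overlap, with 3.65% of all genes so with all libraries and 14.3% without ethanol replicate 3, and a median log2 fold change between 0.02 and 0.15. The fold change of Nlgn3 then ranged from -0.020 to 0.14, that of Lrrtm1 from -0.16 to 0.17, that of Lrrtm2 from -0.016 to 0.085 and the log2 ratio of Nlgn2 to Nlgn1 from -0.063 to 0.048. Nlgn3 was at -0.00 without control replicate 1, -0.01 without control replicate 3, -0.02 without ethanol replicate 1 and -0.01 without ethanol replicate 2. Lrrtm2 was at -0.02 without control replicate 3 and -0.01 without ethanol replicate 2. Lrrtm1 was at 0.17 without control replicate 2 and 0.15 without ethanol replicate 3. The ratio was at -0.02 without control replicate 1. Neurexin ligands gave 0 to 2 higher and 0 to 1 lower genes, and presynaptic partners 0 to 1 higher. Postsynaptic partners gave 0 to 3 higher, and other adhesion families 1 to 8 higher and 0 to 1 lower. The lower ligand came without control replicate 2, where 689 of 18391 genes had an unadjusted p below 0.05 in either direction. The lower adhesion gene came without ethanol replicate 2, where 581 of 18414 genes did. With all libraries 2.58% of all genes were lower. The highest counts of the presynaptic, postsynaptic and other adhesion lists came without ethanol replicate 3. In that fit 4.48% of all genes were higher, against 1.57% with all libraries. With library size alone as scaling, 1 gene of the other adhesion families was lower, and 819 of 18141 genes had an unadjusted p below 0.05 in either direction. The median of all genes was then -0.02 and that of the 9 genes 0.05. The cause of these changes was not tested. Across all genes the count with an adjusted p below 0.2 was 0 by edgeR's quasi-likelihood test and limma-voom, 75 by DESeq2 and 77 by edgeR's likelihood ratio test.

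With a block for the replicate number, 1 of the 9 genes, Lrrtm3, was higher at an unadjusted p below 0.05 (2.27% of all genes; smallest adjusted p 0.634), as did 3 of the other adhesion genes, and the block moved the count over all genes from 753 to 1015. Libraries of the same number came from different rats, and their deviations from the group means correlated at 0.0264, 0.388 and 0.211. Control replicate 1 correlated best with ethanol replicate 3, at 0.305, so the numbers were not taken to pair the samples.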
